A study of Mus musculus with 12 samples.

Results

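Ggt5 and 9 other genes of glutathione metabolism were followed in hearts of transgenic mice carrying mutant forms of integrin-linked kinase (ILK). The members were Ggt5, Ggt7, Gclc, Gclm, Gss, Gsr, Gpx1, Gpx3, Gpx4 and Gstm1, which are 10 of the 18193 genes that the platform annotation names. Every probe set that the annotation assigns to 1 of these genes alone was taken, which gave 20 of 45037 probe sets (a probe set is the group of short array sequences that reports on 1 transcript). Ggt5 was chosen by its measured signal in R211A Tg hearts against WT hearts, and the other genes were chosen by their role beside it. Its R211A Tg values are therefore given as a description, with no test.

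The 12 hearts came from 3 R211A Tg mice, 3 S343D Tg mice and 6 WT littermates, all labelled as C57BL/6 mice of 8 to 9 weeks. Both transgenes are described as cardiac-specific overexpression of mutated ILK, R211A as an activation-resistant form and S343D as a constitutively active form. The sources used here name no promoter and do not say how many founder lines were made. The WT hearts fall into a first set (hearts 1, 3 and 6) and a second set (hearts 8, 10 and 11) by their titles. No label names the transgenic line that a set belongs to. The S343D Tg hearts (2, 4 and 5) share the low range of heart numbers with the first set. The R211A Tg hearts (7, 9 and 12) share the high range with the second set. The 2 lines therefore differ in range of heart numbers as well as in transgene. Heart 1 was labelled male and the other 11 female, and 1 description names the left ventricle where the others say heart. The study used mice with and without surgical infarction, but the labels of these 12 hearts name no surgery.

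Glutathione is the main small thiol of the cell. It is built from glutamate, cysteine and glycine in 2 steps, the first by glutamate-cysteine ligase (Gclc and Gclm) and the second by glutathione synthetase (Gss). Glutathione peroxidases use it to reduce peroxides, glutathione reductase (Gsr) restores it with NADPH, and glutathione S-transferases join it to reactive compounds. Outside the cell, breakdown starts with gamma-glutamyltransferases, which cut the gamma-glutamyl bond. Ggt5 is one of these enzymes and also turns leukotriene C4 into leukotriene D4. In the heart, which carries a heavy load of mitochondrial oxidants, this system is one of the main defences against peroxides.

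The values are MAS5 signals on a linear scale with no stated unit. Their mean without the lowest and highest 2% was 150 on each array, and median signals were 41.5 to 46.5 in R211A Tg hearts, 45.1 to 49.1 in S343D Tg hearts and 43.1 to 47.1 in WT hearts. Pearson correlations of log2 signal between arrays were 0.933 to 0.945 over 66 pairs, across probe sets that are not independent. Ilk itself read 8220, 9550 and 8620 in R211A Tg hearts, 3260, 3270 and 4020 in S343D Tg hearts, and 551 to 657 in WT hearts. The labels and the Ilk signals went together in every heart. The means differed from WT by 3.87 on the log2 scale in R211A Tg and 2.54 in S343D Tg (adjusted p = 3.8e-13 and 1.6e-10 by limma), and R211A Tg stood 1.33 above S343D Tg. The study made both transgenes from the human ILK gene, while this Ilk probe set is annotated to a mouse transcript. These signals are therefore no calibrated measure of ILK level. The form of the transgene and its level cannot be told apart here.

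Ggt5 had 3 probe sets, and they gave different pictures. Probe set 1439420_x_at read 783, 709 and 399 in R211A Tg hearts 7, 9 and 12. It read 196, 189 and 201 in S343D Tg hearts 2, 4 and 5, and 182, 132, 151, 172, 141 and 170 in WT hearts 1, 3, 6, 8, 10 and 11. Each R211A Tg heart stood above the other 9 hearts, with heart 12 well below hearts 7 and 9. The means were 630 ± 204 in R211A Tg (SD, n = 3), 195 ± 6.02 in S343D Tg (SD, n = 3) and 158 ± 19.6 in WT hearts (SD, n = 6). R211A Tg stood 1.94 (SE 0.170) above WT on the log2 scale, which is 3.85-fold, and 1.63 above S343D Tg, which is 3.10-fold. By size of the log2 difference from WT, this probe set ranked 2 among the 22519 that were tested.

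The S343D Tg hearts also stood above each WT heart at this probe set, though by little. The lowest S343D Tg signal was 189 and the highest WT signal was 182. The log2 difference was 0.31, or 1.24-fold, with a 95% interval of -0.05 to 0.68 and an adjusted p = 0.995 by limma, so it did not pass. Groups that do not overlap with S343D Tg above WT were found at 1.11% of tested probe sets.

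The second probe set, 1418216_at, is the one matched to the RefSeq transcript of Ggt5, and it did not follow the first. It read 95.5, 96.1 and 83.7 in R211A Tg hearts, 97.2, 91.5 and 66.4 in S343D Tg hearts, and 77.3 to 111 in WT hearts with a median of 87.9. The 3 groups overlapped throughout. The means were 91.8 ± 6.97 in R211A Tg (SD, n = 3), 85.0 ± 16.4 in S343D Tg (SD, n = 3) and 90.4 ± 12.7 in WT hearts (SD, n = 6). On the log2 scale R211A Tg differed from WT by 0.03, with a 95% interval of -0.29 to 0.35. This interval lies below the 1.94 of the first probe set. Between S343D Tg and WT the log2 difference was -0.10 (adjusted p = 0.995 by limma).

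The third probe set, 1455747_at, was designed from an expressed sequence tag and lay below the limit on mean signal (43.5), so it was not tested. It read 30.9, 29.1 and 13.1 in R211A Tg hearts, 31.5, 33.9 and 37.5 in S343D Tg hearts, and 17.9 to 41.2 in WT hearts. The R211A Tg hearts lay below the S343D Tg hearts and overlapped the WT hearts, with heart 12 the lowest of the 12. The means were 24.4 ± 9.78 in R211A Tg, 34.3 ± 3.02 in S343D Tg and 26.4 ± 9.70 in WT hearts, and the log2 difference between R211A Tg and WT was -0.14. Thus, of the 3 probe sets of Ggt5, 1 was higher in R211A Tg hearts than in WT hearts. In heart 12, all 3 had their lowest reading among the R211A Tg hearts.

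**Figure D1:**
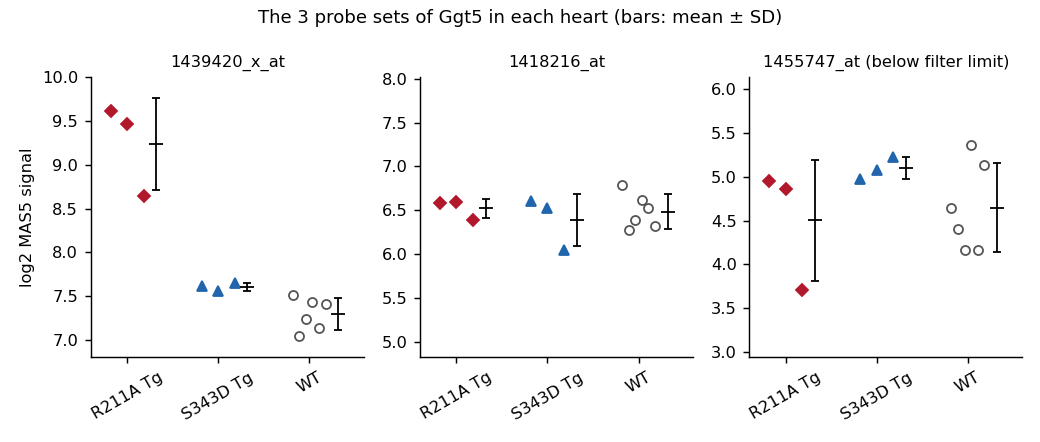
Log2 MAS5 signal of the 3 Ggt5 probe sets, with 1 point per heart and bars for the mean ± SD of R211A Tg (n = 3), S343D Tg (n = 3) and WT (n = 6), on axes of the same log2 span. At 1439420_x_at the R211A Tg hearts, with signals of 399 to 783, lie above the other 9 hearts, while at 1418216_at and 1455747_at the R211A Tg and WT hearts overlap.

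The suffix _x_at is given by the array maker to probe sets in which some probes may match other sequences, and the annotation gives no accession for 1439420_x_at. Which transcript these probes caught in R211A Tg hearts was not tested, since probe sequences were not used here. Such a gap between probe sets of 1 gene was uncommon. Ggt5 was chosen for its R211A Tg signal, which also makes the gap, so its place by gap is a description with no test. Among the 4994 genes with 2 or more tested probe sets, the gap between the highest and the lowest log2 difference of R211A Tg against WT had a median of 0.163, and 21 genes had a gap of 1 or more. The gap was 1.91 for Ggt5, and 2 genes including Ggt5 reached that size. The other was Klhdc3, which was named after its values were seen and whose probe sets ran between -1.97 and 0.03. The other members with several tested probe sets had gaps of 0.09 (Gss and Gpx4) to 0.49 (Gclm).

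The WT sets gave close levels at 1439420_x_at. The first set averaged 155 ± 25.3 and the second 161 ± 17.1 (SD, n = 3 each). All 3 R211A Tg hearts were above both sets, and each S343D Tg heart was too. In the mouse genome, Ggt5 lies on chromosome 10 near other genes of the glutathione system (Gstt3 and Gstt1). Genes without a probe set of their own were passed over, so genes nearer to Ggt5 may be unread. Of the 10 nearest genes with a probe set of their own, Lrrc75b, 4933407G14Rik, Upb1 and Susd2 lay below the limit on signal. The other 6 (Snrpd3, Gucd1, Cabin1, Ddt, Gstt3 and Gstt1) were tested, and their log2 differences between R211A Tg and WT ran between -0.16 and 0.23. By limma 0 passed, and 0 had an unadjusted p under 0.05.

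Apart from Ggt5, no tested member passed the test in any comparison. Of the 20 member probe sets, 18 from 9 genes passed the limit on low signal. In R211A Tg against WT, 1 member probe set passed limma at an adjusted p under 0.05, that of Ggt5 which the choice of the gene fixed, while 0.204% of all tested probe sets passed. Of the 16 tested probe sets of the other 8 genes, 0 passed, 1 had an unadjusted p under 0.05 (7.51% of all tested) and 0 had groups that did not overlap (4.07% of all tested). Their log2 differences ran between -0.07 and 0.68, with 13 above 0 and 3 below. The median was 0.143, beside 0.001 over all tested probe sets. Against WT, the S343D Tg hearts had 0 of 18 member probe sets that passed limma (0.00444% of all tested) and 0 with an unadjusted p under 0.05 (3.98% of all tested), with 8 above 0 and 10 below and a median of -0.007. The tests measure the spread between these mice, and the 2 comparisons share the WT hearts.

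**Figure D2:**
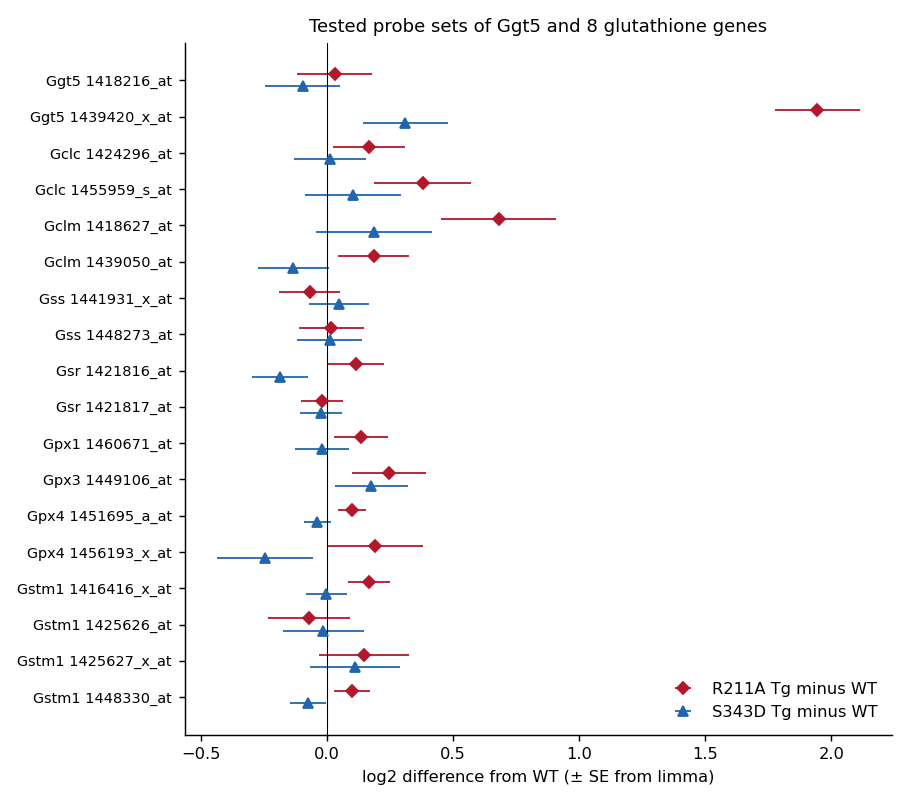
Log2 difference from WT of the 18 tested member probe sets, with R211A Tg above S343D Tg in each row and bars for ± SE from limma. Ggt5 1439420_x_at stands at 1.94 in R211A Tg, and the tested probe sets of the other 8 genes lie between -0.07 and 0.68 in R211A Tg and between -0.25 and 0.19 in S343D Tg.

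Of the enzymes that make glutathione, Gclm had the largest difference. Gclm is the modifier subunit of glutamate-cysteine ligase, and raises the activity of the catalytic subunit. Probe set 1418627_at read 168, 195 and 160 in R211A Tg hearts, 102, 142 and 129 in S343D Tg hearts, and 167, 120, 78.4, 113, 134 and 68.1 in WT hearts. The R211A Tg hearts were above each S343D Tg heart and above 5 of the 6 WT hearts, and overlapped with WT through heart 1. The means were 174 ± 18.7 in R211A Tg (SD, n = 3), 124 ± 20.3 in S343D Tg (SD, n = 3) and 113 ± 36.4 in WT hearts (SD, n = 6). The log2 difference between R211A Tg and WT was 0.68 (95% interval 0.19 to 1.17), or 1.6-fold, with an unadjusted p of 0.00985 that did not hold after adjustment over all tested probe sets (adjusted p = 0.439 by limma). Between S343D Tg and WT it was 0.19 (adjusted p = 0.995 by limma).

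The other Gclm probe set, 1439050_at, gave a smaller difference. It read 87.6, 76.3 and 79.6 in R211A Tg hearts, 59.9, 70.0 and 65.4 in S343D Tg hearts, and 57.6 to 87.3 in WT hearts. Again each R211A Tg heart stood above each S343D Tg heart, with the WT hearts spread over both. The log2 differences were 0.19 between R211A Tg and WT (adjusted p = 0.850 by limma), -0.13 between S343D Tg and WT (adjusted p = 0.995) and 0.32 between R211A Tg and S343D Tg (adjusted p = 0.613). 

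Gclc, the catalytic subunit that forms gamma-glutamylcysteine, was read by 2 probe sets. At 1424296_at the signals were 147, 138 and 110 in R211A Tg hearts, 121, 113 and 120 in S343D Tg hearts and 96.5 to 157 in WT hearts, so that the WT hearts spanned both lines. The log2 differences from WT were 0.17 in R211A Tg (95% interval -0.14 to 0.47) and 0.01 in S343D Tg (-0.29 to 0.32). At 1455959_s_at the signals were 82.0, 106 and 79.7 in R211A Tg hearts, 93.6, 63.7 and 65.2 in S343D Tg hearts and 46.8 to 82.2 in WT hearts. There heart 9 stood above all other hearts, and the log2 difference between R211A Tg and WT was 0.38 (-0.03 to 0.79, adjusted p = 0.693 by limma). 

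Gss, the enzyme of the second step, did not differ between the 3 genotypes beyond the spread of the mice. Probe set 1448273_at averaged 130 ± 20.1 in R211A Tg, 128 ± 13.0 in S343D Tg and 128 ± 15.9 in WT hearts (SD), with log2 differences from WT of 0.02 in R211A Tg (-0.26 to 0.29) and 0.01 in S343D Tg (-0.26 to 0.29). At 1441931_x_at the means were 91.9 ± 14.4 in R211A Tg, 99.0 ± 8.01 in S343D Tg and 95.7 ± 6.25 in WT hearts. These intervals leave room for a change of about the size seen at Gclm's smaller probe set, and none as large as that at 1418627_at.

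Gsr, which returns oxidised glutathione to its reduced form, differed between the lines at 1 of its 2 probe sets before adjustment. At 1421816_at it read 184, 248 and 248 in R211A Tg hearts, 166, 190 and 193 in S343D Tg hearts and 177 to 226 in WT hearts. Hearts 9 and 12 stood above all other hearts, while heart 7 lay among the S343D Tg hearts. Between R211A Tg and S343D Tg the log2 difference was 0.30, with an unadjusted p of 0.0344 and an adjusted p = 0.566 by limma. At 1421817_at the means were 207 ± 11.5 in R211A Tg, 206 ± 11.5 in S343D Tg and 210 ± 13.9 in WT hearts (SD), and the 95% interval of the log2 difference between R211A Tg and WT was -0.20 to 0.16.

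Among the peroxidases, Gpx1 is the abundant cytosolic enzyme, Gpx3 is secreted into plasma, and Gpx4 reduces lipid hydroperoxides in membranes and so guards against ferroptosis. Gpx1 read 839, 767 and 792 in R211A Tg hearts, 615, 791 and 761 in S343D Tg hearts and 585 to 834 in WT hearts. The WT hearts covered nearly the whole range of both lines. The log2 difference from WT was 0.14 in R211A Tg (95% interval -0.09 to 0.36) and -0.02 in S343D Tg (-0.24 to 0.21).

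Gpx3 read 2760, 2610 and 2110 in R211A Tg hearts, 2490, 3100 and 1690 in S343D Tg hearts and 1910 to 2400 in WT hearts. The S343D Tg hearts were the most scattered and held both the highest and the lowest reading. Between R211A Tg and WT the log2 difference was 0.25 (-0.06 to 0.56, adjusted p = 0.767 by limma).

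Gpx4 had the narrowest interval of the members. Probe set 1451695_a_at read 5120, 5310 and 4890 in R211A Tg hearts, 4630, 4400 and 4900 in S343D Tg hearts and 4530 to 5080 in WT hearts. The lines overlapped by a single pair of hearts. The log2 difference was 0.10 between R211A Tg and WT (-0.02 to 0.22, adjusted p = 0.747 by limma) and 0.14 between R211A Tg and S343D Tg, with an unadjusted p of 0.0486 and an adjusted p = 0.590. The other probe set, 1456193_x_at, scattered widely within R211A Tg (2080, 4650 and 3480), and averaged 3400 ± 1290 there, against 2390 ± 247 in S343D Tg and 2850 ± 459 in WT hearts (SD).

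Gstm1, a mu class transferase, was read by 4 probe sets, and the mu class genes are close in sequence, so that their probe sets may share signal. At 1416416_x_at the R211A Tg hearts read 1720, 2060 and 1740, the S343D Tg hearts 1680, 1520 and 1700, and the WT hearts 1420 to 1850. At 1448330_at they read 1670, 1950 and 1600 in R211A Tg, 1530, 1550 and 1530 in S343D Tg, and 1440 to 1750 in WT. At both, each R211A Tg heart was above each S343D Tg heart, and WT overlapped with each line. Between R211A Tg and S343D Tg the log2 difference was 0.17 at each (adjusted p = 0.668 and 0.590 by limma). The remaining 2 probe sets had overlapping groups, with log2 differences between R211A Tg and WT of -0.07 and 0.15.

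Ggt7, a family member whose enzymatic activity is not established, had a single probe set far below the limit on mean signal. It read 3.70, 2.39 and 4.20 in R211A Tg hearts, 3.19, 12.3 and 7.19 in S343D Tg hearts and 3.30 to 13.1 in WT hearts, and no difference was tested at this level.

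**Figure D3:**
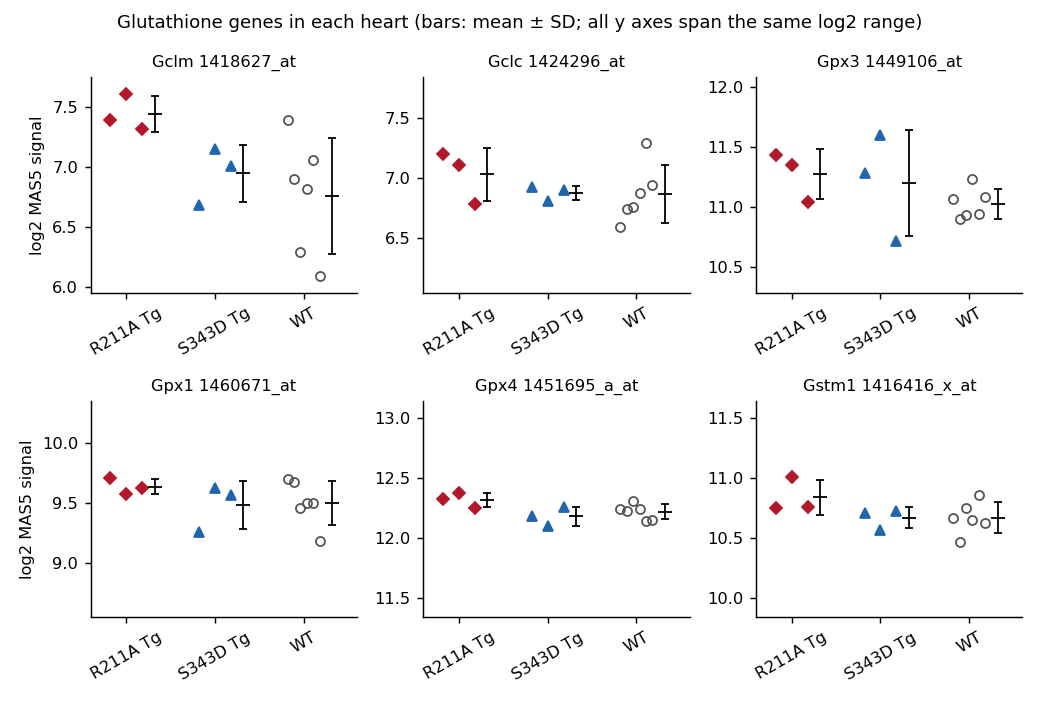
Log2 MAS5 signal of Gclm, Gclc, Gpx3, Gpx1, Gpx4 and Gstm1, each by its probe set with the highest mean, with 1 point per heart, bars for mean ± SD and axes of the same log2 span. In each panel the R211A Tg hearts overlap the WT hearts, and at Gclm and Gstm1 they stand above the S343D Tg hearts.

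Compared directly, most member probe sets had a higher mean in R211A Tg than in S343D Tg hearts. In R211A Tg against S343D Tg, the only member probe set past limma's threshold was that of Ggt5 (0.16% of all tested passed), and nothing is read from it, since the same R211A Tg signals chose the gene. With the range of heart numbers as a block, this Ggt5 probe set was no longer past the threshold, at a log2 difference of 1.57. The same held with the 6 transgenic hearts each paired with a WT heart. Of these, 5 pairs were made by title number, and heart 2, whose title has none, was taken with heart 1. Nothing is read from this loss either. Of the 16 tested probe sets of the other 8 genes, 0 passed, 2 had an unadjusted p under 0.05 (8.45% of all tested), and 14 were above 0 and 2 below. Their log2 differences ran between -0.12 and 0.49. At 4 of the 16 (both of Gclm and 2 of Gstm1) each R211A Tg heart stood above each S343D Tg heart, where 7.55% of all tested probe sets had groups that did not overlap in that direction. The median over all 18 was 0.154, beside -0.005 over all tested. These 18 probe sets come from 9 genes, and probe sets of 1 gene share their source.

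The rest of the pathway was read from 8 lists of genes with known roles in glutathione metabolism, each gene by its highest probe set. The lists held 80 genes apart from the members, of which 73 had a probe set and 56 were tested. In R211A Tg against WT 0 passed limma. At an unadjusted p under 0.05 there were 12 (5 higher and 7 lower), or 21.4%, beside 7.51% of all tested probe sets, and the median log2 difference was 0.022. In S343D Tg against WT 0 passed in either direction, and 2 (3.57%) reached an unadjusted p under 0.05, beside 3.98% of all tested probe sets. In R211A Tg against S343D Tg 1 gene fell, Idh1 (0.16% of all tested passed), and 10 (17.9%) had an unadjusted p under 0.05, beside 8.45% of all tested. The shares of all tested probe sets also cover those that are not the highest of their gene, so they are not a like background. The lists were chosen with earlier results of these data known, so these shares are a description.

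The values by list include the members, among them Ggt5 in the gamma-glutamyl and leukotriene lists. Of the 7 tested genes of glutathione synthesis and cysteine supply, which include Gclc, Gclm and Gss, 6 had a log2 difference between R211A Tg and WT above 0. Their median over the 7 was 0.228, beside -0.001 over all genes. In these, 0 passed limma, and Gclm and Slc3a2 had an unadjusted p under 0.05. Slc3a2 is the heavy chain of the cystine and glutamate exchanger. Slc7a11, of the same list, lay below the limit on signal, with means of 13.1 in R211A Tg and 13.6 in WT hearts. It was not tested. Slc3a2 averaged 368 ± 25.3 in R211A Tg, 311 ± 18.8 in S343D Tg and 314 ± 18.1 in WT hearts (SD). Its log2 difference from WT was 0.23 in R211A Tg (adjusted p = 0.426 by limma). Each R211A Tg heart was above each WT heart, where 4.07% of all tested probe sets had groups that did not overlap. The other lists had medians between -0.043 (gamma-glutamyl cycle and breakdown, 10 tested) and 0.111 (peroxidases, 5 tested). In S343D Tg against WT the medians of the lists ran between -0.156 (reduction and NADPH supply, 9 tested, or -0.067 over all probe sets of each gene) and 0.098 (leukotriene genes, 4 tested).

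**Figure D4:**
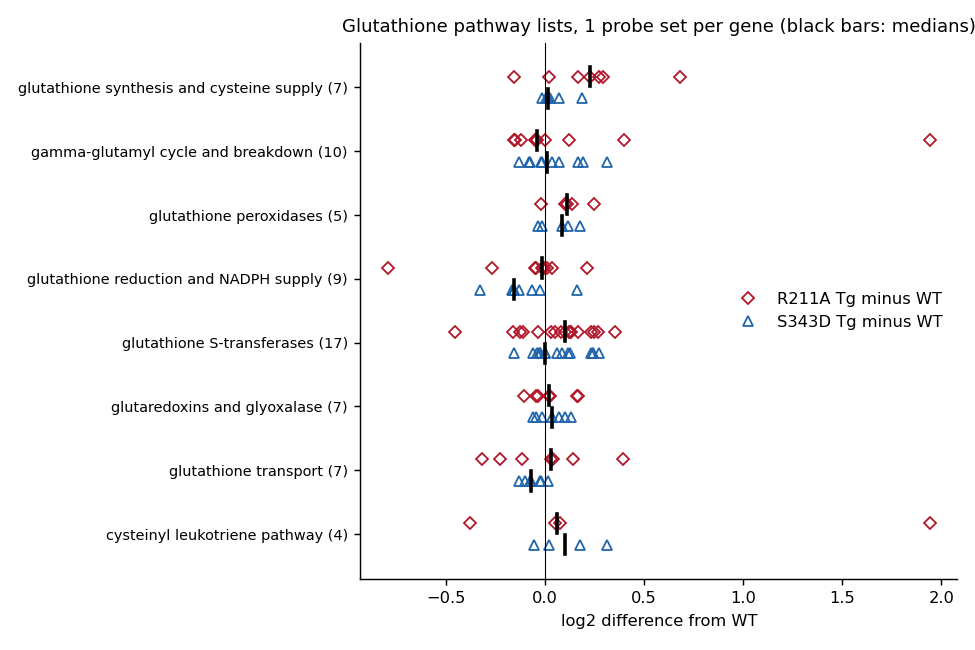
Log2 difference from WT for each tested gene of the 8 lists, with R211A Tg above S343D Tg in each row and a bar at the median of the list. The point for Ggt5 lies at 1.94 in R211A Tg, and the median of the synthesis list is 0.228 in R211A Tg and 0.013 in S343D Tg.

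Idh1, a cytosolic enzyme that makes NADPH, had the smallest p among the other genes of the pathway. Probe set 1422433_s_at read 397, 451 and 397 in R211A Tg hearts, 887, 705 and 828 in S343D Tg hearts, and 1000, 888, 690, 654, 596 and 579 in WT hearts 1, 3, 6, 8, 10 and 11. The R211A Tg hearts were the lowest of the 12, and the WT sets did not overlap with each other. The log2 difference was -0.95 between R211A Tg and S343D Tg (adjusted p = 0.0471 by limma) and -0.80 between R211A Tg and WT (adjusted p = 0.0514 by limma). With the range of heart numbers as a block, which sets each line against 1 WT set, the values were -0.47 (adjusted p = 0.632) and -0.56 (adjusted p = 0.195). The other Idh1 probe set, 1419821_s_at, had a log2 difference of -0.03 between R211A Tg and WT (adjusted p = 0.981 by limma), so that this gene too was read differently by its probe sets.

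The next genes by p in R211A Tg against WT did not pass limma. Gstm7, of the mu class, averaged 604 ± 18.6 in R211A Tg, 541 ± 16.7 in S343D Tg and 510 ± 18.3 in WT hearts (adjusted p = 0.174 against WT by limma). Gstm3, of the same class, averaged 189 ± 40.0 in R211A Tg, 255 ± 28.8 in S343D Tg and 255 ± 18.3 in WT hearts (adjusted p = 0.235). Alox5, the 5-lipoxygenase that starts leukotriene synthesis and so lies upstream of the substrate of Ggt5, averaged 151 ± 28.6 in R211A Tg, 198 ± 27.5 in S343D Tg and 194 ± 10.0 in WT hearts (adjusted p = 0.403). The R211A Tg hearts lay above each WT heart for Gstm7 and below each WT heart for Alox5. Groups that did not overlap made up 4.07% of all tested probe sets in R211A Tg against WT. For Gstm7 the S343D Tg hearts also lay above each WT heart (530 to 560, against at most 527). S343D Tg stood above WT without overlap at 1.11% of all tested probe sets. In S343D Tg against WT the smallest p values belonged to Me1, Gstm4, Idh2, Pgd and Mthfd2, with log2 differences of -0.16, 0.24, -0.16, -0.16 and -0.33 (adjusted p = 0.995 each by limma). Between the lines, Glo1, the first enzyme of the glyoxalase pathway, had a log2 difference of 0.23, and Nit1, which clears deaminated glutathione, had -0.23 (adjusted p = 0.402 and 0.447 by limma).

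The profiles most like that of Ggt5 1439420_x_at over the 12 hearts were those of Hspa1a, Hspa1b, Uap1, Hsph1 and Hsp90aa1. Likeness was the root mean square difference between 2 log2 profiles, each set to its WT mean. It came to 0.450, 0.469, 0.512, 0.520 and 0.619 in that order of genes. A gene at its WT mean in every heart would have 1.01, and the median over tested probe sets assigned to 1 gene was 1.03. Hspa1a, Hspa1b, Hsph1 and Hsp90aa1 encode heat shock proteins and Uap1 makes UDP-N-acetylglucosamine. A high level in the R211A Tg hearts is what this measure picks out, since Ggt5 was chosen for it, so sharing it is no finding. The 4 heat shock genes differ from Ggt5 in the order of those hearts, while Uap1 has the same order. Above their WT means, hearts 7, 9 and 12 stood at 2.32, 2.17 and 1.34 for Ggt5 on the log2 scale. The values were 1.25, 2.09 and 1.84 for Hspa1a, 1.10, 1.38 and 1.66 for Hsph1, and 1.21, 0.99 and 0.93 for Uap1. Heart 7 was thus the highest of the line for Ggt5 and Uap1, and the lowest for the 4 heat shock genes.

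**Figure D5:**
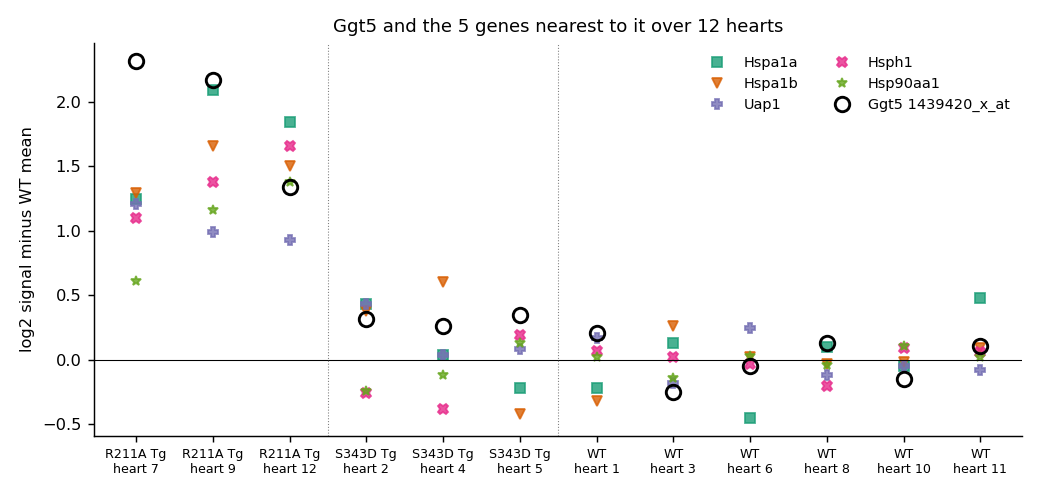
Log2 signal minus the WT mean in each of the 12 hearts for Ggt5 1439420_x_at and the 5 genes with the most similar profile, with R211A Tg hearts at the left, then S343D Tg, then WT. Ggt5 lies at 2.32, 2.17 and 1.34 in R211A Tg hearts 7, 9 and 12, while Hsph1 lies at 1.10, 1.38 and 1.66 in the same hearts.

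In whole heart tissue, fewer cells of a type and less RNA per cell cannot be told apart. Markers of 11 cell types (56 genes, 52 measured and 42 tested) were read beside the members. By limma 0 markers passed in any of the 3 comparisons, each gene read by its highest probe set. An unadjusted p under 0.05 was found for 2 (4.76%, beside 7.51% of all tested) in R211A Tg against WT, 3 (7.14%, beside 3.98%) in S343D Tg against WT and 0 (beside 8.45%) in R211A Tg against S343D Tg. Here too the shares of all tested cover probe sets that are not the highest of their gene. The summed signal of the 6 cardiomyocyte markers, which define the labelled tissue, was 61200 to 67500 in R211A Tg, 57200 to 62200 in S343D Tg and 59500 to 69500 in WT hearts. For the 6 fibroblast markers it was 9820 to 11500 in R211A Tg, 11100 to 11300 in S343D Tg and 8970 to 11300 in WT hearts. For the 6 smooth muscle and pericyte markers it was 7740 to 8500 in R211A Tg, 7410 to 8970 in S343D Tg and 7140 to 8850 in WT hearts. Each of these sums overlapped between genotypes. The list medians furthest above 0 were those of adipocyte and mesothelial markers, which rest on 1 and 2 tested genes. Retn, the adipocyte marker, averaged 81.1 ± 39.0 in R211A Tg, 57.2 ± 17.2 in S343D Tg and 49.4 ± 17.5 in WT hearts (SD), a log2 difference of 0.68 between R211A Tg and WT (adjusted p = 0.650 by limma). Upk3b, a mesothelial marker, had a log2 difference from WT of 0.63 in R211A Tg (adjusted p = 0.747 by limma) and 1.19 in S343D Tg (adjusted p = 0.995), and its other probe set had 1.92 in R211A Tg (adjusted p = 0.563) and 2.34 in S343D Tg (adjusted p = 0.995). Wt1, the other tested mesothelial marker, had log2 differences from WT of 0.16 in R211A Tg and 0.26 in S343D Tg. The other Upk3b probe set read 8.42, 96.2, 8.26, 69.0, 19.5 and 10.9 in WT hearts 1, 3, 6, 8, 10 and 11. It read 119, 97.1 and 46.2 in R211A Tg hearts 7, 9 and 12, and 161, 180 and 44.2 in S343D Tg hearts 2, 4 and 5. Ggt5 1439420_x_at read 783, 709 and 399 in the same R211A Tg hearts, and 196, 189 and 201 in the same S343D Tg hearts. The 4 atrial markers varied widely within every genotype. Their sum was 20100, 2610 and 4080 in R211A Tg hearts 7, 9 and 12, where Ggt5 1439420_x_at read 783, 709 and 399. S343D Tg heart 4 and WT heart 8, with sums of 20800 and 15900, read 189 and 172 for Ggt5. The part of mesothelial and atrial cells in the Ggt5 signal was not tested.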

How the data were processed

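RNA of 12 mouse hearts was hybridised to Affymetrix arrays. The authors deposited linear signal intensities from MAS5, whose version, scaling target and detection calls were not given in the sources used. Of 45101 features, 64 array controls were left out, and signals were taken to log2 with nothing added. The authors' own gene lists were not used.

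Probe sets whose mean log2 signal reached the median (5.44), 22519 in all, were fitted over all 12 hearts by genotype with limma 3.58.1 (lmFit, eBayes with trend) in R 4.3.3. P-values were adjusted by Benjamini-Hochberg over all of these, and 0.05 was the threshold. Intervals are 95%. In simulated data with the R211A Tg against WT design, 86% of probe sets changed 2-fold and 54.8% of those changed 1.5-fold were recovered, and 4.86% of calls were false. The simulated noise was independent between probe sets and arrays, with no effect of heart range or pairing, so these rates hold for that setting only. The array number of 3 per line limits the precision.

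The platform annotation names 1 gene for 34945 probe sets, more than 1 for 932, and leaves 9160 unnamed. RefSeq (GRCm38.p6) served only for the order of genes along a chromosome. The text names all members, and other pathway genes that passed limma or had 1 of the 5 smallest p values in a comparison. It also names the 5 nearest neighbours of Ggt5 on each side that have a probe set of their own. The 5 profiles most like Ggt5 are named too, and Ilk as a check of the labels. The members and lists were chosen with earlier results of these data known.

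Both WT sets are numbered 1 to 3 in their titles. Deviations from group means of R211A Tg hearts correlated at 0.119 to 0.179 with the same-numbered hearts of the second WT set and at -0.149 to -0.0199 with those of the first, so the hearts were paired from the data with the second set. For S343D Tg, the 2 numbered pairs with the first set gave 0.17 and 0.209, and heart 2, whose title has no number, was taken with heart 1 (0.0709). With the second set the values were -0.102 to -0.0153. With these 6 pairs as a block, Ggt5 was no longer past the threshold between the lines. Its R211A Tg level chose the gene, so this is a description. The alternatives tried were other normalizations, filters, eBayes settings, blocks and leaving out each heart. Python 3.11.15 and matplotlib 3.10.9 drew the figures.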

Additional observations from a re-analysis of the deposited data

Results flagged for a closer look

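Ggt5 1439420_x_at was picked out because the same contrast with WT gave different sizes in the 2 lines. The log2 difference between R211A Tg and S343D Tg was 1.63, and as the gene was chosen for its R211A Tg level this is a description. Gclm 1439050_at was picked out because the hearts of the lines lay on opposite sides of the WT mean, at 76.3 to 87.6 in R211A Tg and 59.9 to 70.0 in S343D Tg, with a WT mean of 71.7 ± 9.77 (SD, n = 6). The log2 difference between the lines was 0.32. That position on opposite sides is no test of the difference, and by limma the adjusted p was 0.613. No member probe set had a WT heart far from the other 5 by Dixon's critical value.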

How the results depend on the processing

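The number of probe sets that passed limma was steady against WT (33 to 59 in R211A Tg over the alternatives run, 46 as reported, and 1 throughout in S343D Tg). Between R211A Tg and S343D Tg it moved with the fit. There, 36 passed as reported, 5 with eBayes without the trend, 55 with array weights, 16 with only the 2 lines in the fit, 3 with the range of heart numbers as a block, and 1 with a replicate block of 6 pairs, 1 of them with a heart that has no number in its title, an alternative chosen after seeing the data. Leaving out 1 heart at a time gave 10 to 49, and it was 10 without R211A Tg heart 12. A replicate block by title number alone gave 52, 1 and 38. Member probe sets that passed between the lines numbered 0, not 1, with the heart range block or with the 6 pairs. There Ggt5 1439420_x_at had a log2 difference of 1.57. Its R211A Tg level chose the gene, so this change of call is a description. With either block the lines are compared only through the WT set in the range of each. The cause of the change was not tested. No other member call changed under these blocks. Against WT, the log2 difference of Ggt5 1439420_x_at in R211A Tg was 1.84 to 1.98 over the 13 alternatives other than leaving out a heart and 1.76 to 2.25 with 1 heart left out, the highest without heart 12. The Idh1 1422433_s_at call between the lines was lost in 15 alternatives, with adjusted p up to 0.632. For R211A Tg against WT, Idh1 passed in 6 (adjusted p = 0.0245 to 0.0456). The median of the synthesis list between the lines was 0.116 with all probe sets of a gene, beside 0.244.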
